A study of Mus musculus with 36 samples.

Results

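Metallothioneins and zinc exporters were followed in cultured mouse cortical cells through 5 genes, chosen by their GENCODE symbols. They were Mt1, Mt2 and Mt3, which encode small cysteine-rich proteins that bind zinc and copper, and Slc30a1 and Slc30a3, which encode the zinc exporters ZnT1 and ZnT3. All 5 were found among the 55492 entries of the count table, and all 5 passed the filter of a mean count above 5 that left 20355 genes for testing.

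The cells were dissociated cortex of embryonic day 18 mice, bought from a supplier under the name C57EDCX, and grown for 10 d before treatment. Control cultures received fresh growth medium, DEX cultures 1 µM dexamethasone, an agonist of the glucocorticoid receptor, and DEX + RU-486 cultures 1 µM of each drug, RU-486 (mifepristone) being an antagonist of that receptor. Treatment lasted 72 h and was renewed after 48 h. No group received RU-486 alone, and a vehicle for the control cultures is not given in the sources used here. Each treatment had 12 libraries, 6 in each of 2 batches. The labels do not say which libraries came from separate cultures or dissections, so the p-values measure only the spread between these libraries.

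Library totals ran from 12.1 to 82.4 M counts (M, 1000000). In batch 1 the RNA integrity number (RIN) went with treatment, from 7.8 to 9.2 in control, 3.9 to 7.8 in DEX and 5.6 to 7.9 in DEX + RU-486, and depth differed as well, with 24.2 to 82.4 M counts in control, 12.1 to 22.3 M in DEX and 17.4 to 26.7 M in DEX + RU-486. In batch 2, 2 libraries of each treatment had a RIN between 1.4 and 2.7 and stood apart. They are called degraded here, and the batch 2 comparisons rest on the 4 libraries per treatment of RIN 7.4 to 8.7. Neuron and glial markers were both present: in batch 1 the summed level was 1850 to 3260 CPM for 9 neuron markers, 33.2 to 91.9 CPM for 8 astrocyte markers and 57.1 to 2080 CPM for 5 oligodendrocyte lineage markers. None of these lists is particular to cortex, so the cortical label was not checked. CPM are counts per 1000000 counts of the library, scaled by trimmed mean (TMM) factors.

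Metallothioneins buffer free zinc in the cytosol, and Mt1 and Mt2 are known for induction by metals, through the transcription factor MTF1 on metal response elements, and by glucocorticoids. Mt3 is the form enriched in brain and is known as poorly inducible. ZnT1 moves zinc out of the cell across the plasma membrane and is itself an MTF1 target, whereas ZnT3 loads zinc into synaptic vesicles of glutamatergic neurons.

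Mt1, Mt2 and Mt3 lie together on chromosome 8 of GRCm38, at chr8:94179082-94180327, chr8:94172664-94173568 and chr8:94152607-94154146, all on the plus strand and with gaps of 5514 bases between Mt2 and Mt1 and 18518 bases between Mt3 and Mt2. Slc30a1 is at chr1:191906767-191913247 (plus strand) and Slc30a3 at chr5:31086106-31108237 (minus strand). The promoter windows are shown because these windows differ in how many metal response element cores they hold. Each is the 250 bases before the start that RefSeq annotates (GRCm38.p6), written 5′ to 3′, with every match to TGCACNC or TGCGCNC on either strand in capitals. The windows lie at chr8:94178839-94179088 (Mt1), chr8:94172368-94172617 (Mt2), chr8:94152357-94152606 (Mt3) and chr1:191906531-191906780 (Slc30a1), all on the plus strand.
Mt1: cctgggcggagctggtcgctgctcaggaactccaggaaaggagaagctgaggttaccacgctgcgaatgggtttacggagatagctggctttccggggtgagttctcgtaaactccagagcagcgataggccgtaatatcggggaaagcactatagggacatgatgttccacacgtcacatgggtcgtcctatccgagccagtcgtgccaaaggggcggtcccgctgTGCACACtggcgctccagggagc
Mt2: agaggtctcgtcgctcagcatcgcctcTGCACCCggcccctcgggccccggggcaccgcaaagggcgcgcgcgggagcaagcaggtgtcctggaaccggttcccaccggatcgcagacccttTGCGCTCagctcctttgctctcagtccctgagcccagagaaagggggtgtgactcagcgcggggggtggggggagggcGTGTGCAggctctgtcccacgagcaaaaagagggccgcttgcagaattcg
Mt3: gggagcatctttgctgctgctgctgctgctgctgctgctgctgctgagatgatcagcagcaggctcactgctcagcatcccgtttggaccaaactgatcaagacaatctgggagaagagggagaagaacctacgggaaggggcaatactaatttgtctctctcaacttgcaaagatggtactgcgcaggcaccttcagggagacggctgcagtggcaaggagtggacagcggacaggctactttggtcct
Slc30a1: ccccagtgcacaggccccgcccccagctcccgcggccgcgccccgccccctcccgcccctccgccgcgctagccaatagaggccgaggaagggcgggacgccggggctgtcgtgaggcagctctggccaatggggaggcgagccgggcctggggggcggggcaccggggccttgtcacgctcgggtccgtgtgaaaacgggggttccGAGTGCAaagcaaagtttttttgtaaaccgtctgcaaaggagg
Mt2 held 3 matches, Mt1 and Slc30a1 held 1 each, and in Mt3 these letters did not occur. Of the 2 windows RefSeq gives for Slc30a3, 1 held a single match and the other none. Among all 32851 promoter windows of this length, 21.4% held at least 1 match and 1.26% held at least 3. The core shared by glucocorticoid response elements, ACANNNTGT, occurred once in the Mt1 window, 92 to 84 bases before the start, and in none of the other members' windows, compared with 5.84% of all windows. A match describes the letters only. The counts depend on where RefSeq places the start. Bases after that start and further upstream were not searched, so the counts do not rank whole promoters.

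Mt1 was the most abundant of the 5 per length. Over the 30 libraries of batch 1 and of the intact set of batch 2, its level per kilobase of transcript was 24.1 ± 10.3 CPM per kb (mean ± SD). Slc30a1 had 4.43 ± 0.789, Mt2 4.09 ± 2.08, Mt3 3.15 ± 1.51 and Slc30a3 0.273 ± 0.168. The order of Slc30a1, Mt2 and Mt3 changed with batch. In batch 1 Mt2 had 5.1 ± 1.92, Slc30a1 4.58 ± 0.911 and Mt3 3.52 ± 1.67. The intact libraries of batch 2 gave 4.21 ± 0.516 for Slc30a1, 2.59 ± 1.07 for Mt3 and 2.57 ± 1.26 for Mt2. The ranges of Slc30a1, Mt2 and Mt3 overlapped in each batch. In batch 2 the mean of Slc30a1 was above those of Mt2 and Mt3 by more than their SD. The lowest Mt1 library (6.74 CPM per kb) was above the highest Slc30a1 library (6.43) and the lowest Mt3 library (0.902) above the highest Slc30a3 library (0.605). Mt1, Mt2 and Slc30a3 were also lower in batch 2 than in batch 1: the Mt1 median was 14.6 CPM per kb (6.74 to 27.7, n = 12) in batch 2 against 31.4 (15.9 to 42.4, n = 18) in batch 1. This difference between batches was not tested. Mt4, the remaining gene of the cluster, which is known from stratified epithelia, had 1 read in all 36 libraries and was not tested.

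**Figure D1:**
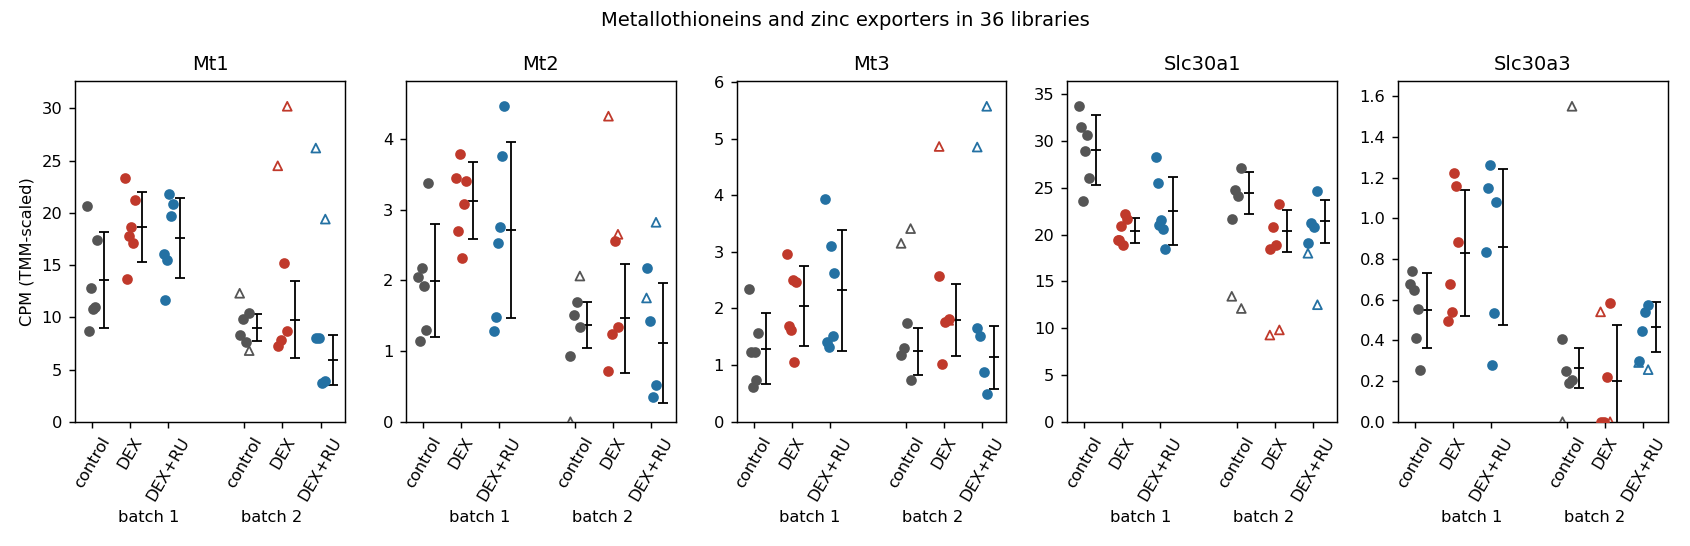
Level of each gene in CPM (y axis, from 0) in every library, by treatment and batch. Circles are libraries of batch 1 and the intact libraries of batch 2, open triangles are the 6 degraded libraries, and black bars give mean ± SD without the degraded ones. In batch 1 Slc30a1 ran from 23.6 to 33.7 CPM in control and from 18.9 to 22.2 CPM in DEX.

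Slc30a1, the plasma membrane exporter, was the only one of the 5 that passed the test between treatments within a batch, and it was lower in treated cultures. Its level in the 6 control libraries of batch 1 had a lowest value of 23.6, a median of 29.8 and a highest value of 33.7 CPM. The 6 DEX libraries gave 18.9, 20.1 and 22.2 CPM in the same order, so that every DEX library lay below every control library. Such separation of libraries was not counted over all genes, for this or any other member, so how common it is in this batch is not known. The 6 DEX + RU-486 libraries gave 18.4, 21.2 and 28.3 CPM, with 4 of 6 below all controls. In DEX it was 0.719-fold the control level (log2 fold change -0.48, SE 0.11, adjusted p = 0.00624, edgeR quasi-likelihood test with Benjamini-Hochberg adjustment), and in DEX + RU-486 0.787-fold (-0.35, SE 0.11, adjusted p = 0.0400). Between DEX + RU-486 and DEX the log2 difference was 0.13 (SE 0.11, adjusted p = 1.00).

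Read against all genes, 1 of 5 members called compares with 19% of tested genes called for DEX against control in batch 1, 1 of 5 with 15.4% for DEX + RU-486 against control, and 0 of 5 with 0% for DEX + RU-486 against DEX, where no member had an unadjusted p under 0.05 and DESeq2 called none. The lower Slc30a1 level in DEX held when each library was left out in turn (adjusted p 0.00320 to 0.0151). With RIN as a covariate its size was the same (-0.48) and its adjusted p was 0.0868. With library totals in place of TMM factors Slc30a1 was -0.79 in DEX (adjusted p = 0.00589) and -0.75 in DEX + RU-486 (adjusted p = 0.00514), where the median of all genes also fell, by 0.26 and by 0.36 on the log2 scale. The call for DEX + RU-486 against control was lost without control library 1, 2, 4 or 5 or DEX + RU-486 library 15, 16, 17 or 18 (adjusted p up to 0.0925), and kept without each of the others. It was also lost with RLE size factors, with no filter on low counts, at RIN 6 or above (-0.27) and with RIN as a covariate (-0.35), where the adjusted p was highest (0.155).

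Several measures moved with treatment in the same batch. The mitochondrial share of counts was 10.5 to 20.2% in control, 21.8 to 49.8% in DEX and 26.3 to 46.9% in DEX + RU-486. Of 9 neuron markers, 6 were lower and none higher in DEX, their summed level having a median of 2910 CPM (2490 to 3260) in control and 2010 CPM (1850 to 2810) in DEX. Higher in DEX were 4 of 8 astrocyte markers (summed level 33.2 to 50.5 CPM in control, 39.5 to 80.5 CPM in DEX), 4 of 5 oligodendrocyte lineage markers (57.1 to 268 CPM against 455 to 2080 CPM) and 3 of 3 markers of dividing progenitors (4.70 to 24.8 CPM against 22.6 to 149 CPM). Of 5 microglia markers, 3 were tested and none passed, with a summed level of 0.0989 to 0.589 CPM in control and 0.0631 to 1.29 CPM in DEX. In DEX + RU-486 4 of 9 neuron markers were lower (summed level 2090 to 2840 CPM), and 3 of 8 astrocyte (35.9 to 91.9 CPM), 3 of 5 oligodendrocyte lineage (208 to 894 CPM), 3 of 3 progenitor (14.7 to 130 CPM) and 2 of 3 endothelial markers (1.35 to 11.8 CPM, against 0.425 to 2.18 CPM in control) were higher. The part of RIN, depth and cell composition in the Slc30a1 difference was not tested apart from the RIN covariate, and in bulk RNA fewer cells of a type and less RNA per cell cannot be told apart.

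The intact libraries of batch 2 gave smaller differences for Slc30a1. The 4 control libraries had 21.7, 24.8, 24.1 and 27.1 CPM, the 4 DEX libraries 18.4, 20.8, 18.9 and 23.3 CPM, and the 4 DEX + RU-486 libraries 19.1, 21.2, 20.8 and 24.6 CPM. Of the DEX libraries, 3 of 4 lay below all controls, and 3 of 4 did so in DEX + RU-486. The log2 fold change was -0.25 in DEX (SE 0.11, adjusted p = 0.247) and -0.18 in DEX + RU-486 (SE 0.11, adjusted p = 0.755). With library totals these were -0.45 (adjusted p = 0.0463), which passed, and -0.15 (adjusted p = 0.920). On that scale 1641 of 20355 genes were called in DEX, and the median of all genes fell by 0.19. For DEX against control 0 of 5 members were called beside 0.565% of all genes (edgeR), 1 member, Slc30a1, had an unadjusted p under 0.05 and DESeq2 called 0. Here the neuron markers had similar sums in control (2040 to 2350 CPM) and DEX (2080 to 2290 CPM). Map2 was the largest part of these sums, with means of 1080 CPM in control and 1210 CPM in DEX. The median log2 fold change over the 9 neuron markers was -0.089 beside 0.0060 over all genes, and 0 of 9 passed. The mitochondrial share was 24.9 to 32.5% in control against 35.6 to 37.9% in DEX. Oligodendrocyte lineage markers summed to 373 to 487 CPM in control and 616 to 995 CPM in DEX, with 1 of 5 higher. The astrocyte sums were 44.0 to 54.7 CPM against 53.3 to 73.7 CPM, and 0 of 8 passed. The part of these markers in the Slc30a1 values was not tested.

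Mt1 and Mt2, the inducible metallothioneins, had higher mean levels in both treated groups of batch 1 on the TMM scale, without passing the test. With library totals Mt1 was 0.16 in DEX and -0.023 in DEX + RU-486. For Mt1 the control libraries of batch 1 had a lowest value of 8.70, a median of 11.9 and a highest value of 20.7 CPM, the DEX libraries 13.7, 18.2 and 23.3 CPM and the DEX + RU-486 libraries 11.7, 17.9 and 21.8 CPM. The groups overlapped, with 2 of 6 libraries above all controls in each treated group. The log2 fold change of Mt1 was 0.49 in DEX (SE 0.20, adjusted p = 0.0859) and 0.40 in DEX + RU-486 (SE 0.20, adjusted p = 0.178). Leaving out 1 library at a time, the DEX value ranged from 0.37 to 0.63 (adjusted p 0.0250 to 0.223). It passed only without control library 1, which gave the highest value, and the lowest value came without control library 2. Adding RIN as a covariate left 0.10 in DEX (adjusted p = 0.860) and 0.091 in DEX + RU-486 (adjusted p = 0.846).

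For Mt2, batch 1 control libraries had a lowest value of 1.14, a median of 1.98 and a highest value of 3.38 CPM, against 2.31, 3.25 and 3.79 CPM in DEX and 1.28, 2.64 and 4.46 CPM in DEX + RU-486. In DEX 3 of 6 libraries lay above all controls. The log2 fold changes of 0.68 in DEX (SE 0.31, adjusted p = 0.129) and 0.46 in DEX + RU-486 (SE 0.31, adjusted p = 0.337) did not pass. With RIN as a covariate the values of Mt2 were 0.29 in DEX (adjusted p = 0.731) and 0.13 in DEX + RU-486 (adjusted p = 0.872). With library totals they were 0.37 (adjusted p = 0.412) and 0.017 (adjusted p = 0.975). On the TMM scale the DEX + RU-486 value ranged from 0.26, without DEX + RU-486 library 18, to 0.66 when 1 library was left out. Mt2 rests on a median of 45 reads per library, while Mt1 had a median of 300, and the Mt2 locus overlaps the antisense gene Gm45774 over 749 bases. That gene had 310 reads in all libraries beside 1852 of Mt2, and whether counting used strand is not given in the sources used here. The same limit holds for Slc30a1, which overlaps the antisense gene 1700034H15Rik over 761 bases (1408 reads beside 23472). Slc30a3 overlaps 2 genes on the opposite strand, Gm9924 over 2311 bases (59 reads beside 496) and Dnajc5g over 1953 bases (22 reads).

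Batch 2 showed another order for these 2 genes. The intact control libraries had 8.29, 9.79, 7.59 and 10.4 CPM of Mt1, the DEX libraries 7.28, 7.81, 15.2 and 8.72 CPM and the DEX + RU-486 libraries 8.02, 8.00, 3.70 and 3.93 CPM. A single DEX library (29) was thus above all controls, and 2 of 4 DEX + RU-486 libraries, those of highest RIN (8.7 and 8.5), were below all controls and all DEX libraries. The log2 fold change of Mt1 was 0.13 in DEX against control (SE 0.27, adjusted p = 0.845), -0.60 in DEX + RU-486 against control (SE 0.27, adjusted p = 0.650) and -0.73 in DEX + RU-486 against DEX (SE 0.28, adjusted p = 0.155). The 3 groups shared 1 fit, and the last comparison passed only when genes of low count were kept in (adjusted p = 0.00376) and had an adjusted p of 0.863 with RIN as a covariate. Leaving out 1 library moved it between -0.91 and -0.43 (adjusted p 0.0871 to 0.408), the smallest difference being that without DEX library 29. Mt2 had 0.935, 1.51, 1.69 and 1.34 CPM in control, 0.721, 1.24, 2.55 and 1.34 CPM in DEX and 2.17, 1.43, 0.348 and 0.514 CPM in DEX + RU-486. Its lowest libraries were the same 2 DEX + RU-486 libraries that were lowest in Mt1. Oligodendrocyte lineage markers moved in the same comparison, with a summed level of 124 to 362 CPM in DEX + RU-486, 616 to 995 CPM in DEX and 373 to 487 CPM in control, and 3 of 5 lower than in DEX. Their part in the Mt1 and Mt2 values was not tested. No member was called among DEX + RU-486 against control (0.00491% of all genes) or DEX + RU-486 against DEX (1.56% of all genes) in edgeR, with 1 member, Mt1, at an unadjusted p under 0.05 in each and 0 called by DESeq2.

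Mt3, the brain form, also had higher means in treated cultures of batch 1 on the TMM scale. With library totals its log2 fold change was 0.35 in DEX (adjusted p = 0.518) and 0.43 in DEX + RU-486 (adjusted p = 0.390). Control libraries of that batch had a lowest value of 0.618, a median of 1.23 and a highest value of 2.35 CPM, DEX libraries 1.05, 2.08 and 2.96 CPM, and DEX + RU-486 libraries 1.32, 2.07 and 3.93 CPM. In each treated group 3 of 6 libraries exceeded all controls. The log2 fold change was 0.70 in DEX (SE 0.36, adjusted p = 0.189) and 0.87 in DEX + RU-486 (SE 0.36, adjusted p = 0.105), and the latter passed only without control library 1 (1.11, adjusted p = 0.0473) among the libraries left out in turn (0.65 to 1.11, adjusted p up to 0.239). With RIN as a covariate the DEX value was -0.010 (adjusted p = 0.994) and the DEX + RU-486 value 0.31 (adjusted p = 0.714). In batch 2 the control libraries had 1.18, 1.31, 1.74 and 0.736 CPM, the DEX libraries 2.57, 1.02, 1.76 and 1.82 CPM and the DEX + RU-486 libraries 1.65, 1.52, 0.885 and 0.483 CPM. Although 3 of 4 DEX libraries were above all controls, the difference of 0.55 on the log2 scale did not pass (SE 0.41, adjusted p = 0.512). It ranged from 0.33, without DEX library 27, to 0.75 when 1 library was left out, and was 0.36 without control library 24. Of the summed CPM per kb of the 3 metallothioneins in batch 1, Mt3 made up 7.76 ± 2.66% in control. The share was 8.61 ± 2.19% in DEX and 10.4 ± 4.49% in DEX + RU-486 (n = 6 each). These shares differed by less than their SD.

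Slc30a3, the vesicular exporter, had few reads, with a median of 13 per library. In batch 1 it had a lowest value of 0.252, a median of 0.602 and a highest value of 0.742 CPM in control, 0.49, 0.780 and 1.22 CPM in DEX and 0.279, 0.958 and 1.26 CPM in DEX + RU-486. The log2 fold changes of 0.64 (SE 0.41, adjusted p = 0.294) and 0.65 (SE 0.40, adjusted p = 0.292) did not pass. With library totals they were 0.33 (adjusted p = 0.642) and 0.22 (adjusted p = 0.761). In batch 2 the values were 0.405, 0.251, 0.190 and 0.205 CPM in control, 0, 0, 0.220 and 0.581 CPM in DEX and 0.30, 0.445, 0.537 and 0.574 CPM in DEX + RU-486. The 2 intact DEX libraries without a read allow levels of up to 0.103 and 0.133 CPM at 3 counts, an upper limit that covers counting error only. In these intact libraries of batch 2 the SE of the log2 fold change was 0.90 for DEX against control.

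**Figure D2:**
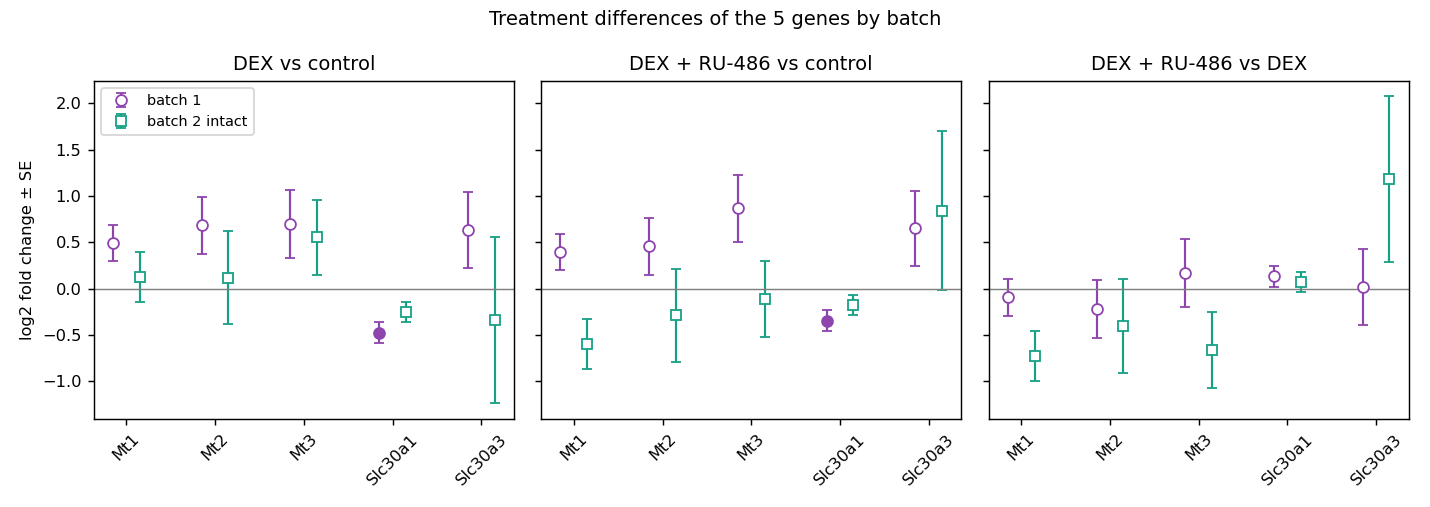
Log2 fold change of each gene (y axis) with its SE in 3 comparisons, for batch 1 (circles) and the intact libraries of batch 2 (squares). Filled symbols passed an adjusted p of 0.05, which only Slc30a1 did in batch 1, in DEX against control (-0.48) and DEX + RU-486 against control (-0.35).

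With all 36 libraries in 1 fit and batch as a covariate, 0 of 5 members were called in edgeR for DEX against control (0.0246% of all genes), DEX + RU-486 against control (0%) or DEX + RU-486 against DEX (0%). At an unadjusted p under 0.05 the counts were 3, 0 and 0 of 5 members, and DESeq2 called 0 in each. The log2 fold changes in DEX were -0.40 for Slc30a1 (SE 0.14, adjusted p = 0.130), 0.61 for Mt1 (SE 0.25, adjusted p = 0.203), 0.70 for Mt2 (SE 0.34, adjusted p = 0.292), 0.47 for Mt3 (SE 0.33, adjusted p = 0.495) and -0.060 for Slc30a3 (SE 0.51, adjusted p = 0.972). When the libraries of RIN below 6 were left out, Slc30a1 passed in DEX (-0.41, adjusted p = 0.00106) and in DEX + RU-486 (-0.26, adjusted p = 0.0399), and no other member passed. This was 1 of 5 members in each, beside 4012 of 20355 genes called in DEX and 1804 in DEX + RU-486. In that fit the DEX values were 0.30 for Mt1, 0.41 for Mt2 and 0.60 for Mt3. With RIN as a covariate on all 36 libraries, Mt1 was 0.24 in DEX, Mt2 0.46, Mt3 0.23 and Slc30a1 -0.26 (adjusted p = 0.109). The value of Mt1 over all 36 libraries was above that of batch 1 (0.49) and of intact batch 2 (0.13), and with library totals in place of TMM factors Mt1 was 0.22, Mt2 0.32, Mt3 0.20 and Slc30a1 -0.66 (adjusted p = 0.134).

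The question whether the batches differed in their response was tested by interaction terms on the 28 libraries of RIN 6 or above. For the DEX response 0 of 5 members passed, beside 4.25% of all genes, and for the difference of DEX + RU-486 from DEX 0 of 5, beside 0.00491% (edgeR; 0 members at an unadjusted p under 0.05 and 0 by DESeq2 in both). The interaction estimate for Slc30a1 was 0.28 (SE 0.16, adjusted p = 0.359), the response in batch 2 minus that in batch 1, and for Mt1 it was -0.29 (SE 0.35, adjusted p = 0.729). Thus a loss of the call in batch 2 was not shown to be a difference between batches.

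Degraded and intact libraries differed in several of these genes. Within batch 2 and with treatment as a covariate, 3 of 5 members differed between the 6 degraded and the 12 intact libraries, where 55.2% of all genes were called. Slc30a1 had 13.4 and 12.1 CPM in the degraded control libraries, 9.26 and 9.81 CPM in DEX and 18.0 and 12.5 CPM in DEX + RU-486, and all 6 lay below all 12 intact libraries (18.4 to 27.1 CPM). It was 0.554-fold the intact level (log2 fold change -0.85, SE 0.12, adjusted p = 2.46e-06).

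Mt1 and Mt3 were higher in degraded RNA on the TMM scale, while with library totals neither passed. Mt1 had 12.3 and 6.81 CPM in the degraded control libraries, 24.5 and 30.2 CPM in DEX and 26.2 and 19.4 CPM in DEX + RU-486, against 3.70 to 15.2 CPM in the intact libraries (log2 fold change 1.23, SE 0.25, adjusted p = 0.000250). The 4 degraded libraries above all intact ones were the treated ones, a difference between treatments that was not tested. Mt3 was above all intact libraries in 5 of 6 degraded ones (1.79 to 5.57 CPM against 0.483 to 2.57 CPM), a log2 difference of 1.50 (SE 0.31, adjusted p = 0.000274). Mt2 (0.68, SE 0.50, adjusted p = 0.266) and Slc30a3 (0.45, SE 0.83, adjusted p = 0.662) did not pass. Markers differed as well: 6 of 8 astrocyte, 5 of 5 oligodendrocyte lineage, 3 of 3 progenitor, 3 of 3 endothelial, 2 of 3 tested microglia and 1 of 2 tested fibroblast markers were higher, and of 9 neuron markers 4 were higher and 5 lower. The parts of RNA integrity and cell composition were not tested. Degraded libraries also had 46.1 to 69.8% mitochondrial counts, and with library totals in place of TMM factors the median of all genes fell by 0.88 on the log2 scale. On that scale Mt1 was 0.30 (adjusted p = 0.279), Mt3 0.60 (adjusted p = 0.119), Mt2 -0.27 and Slc30a1 -1.76.

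**Figure D3:**
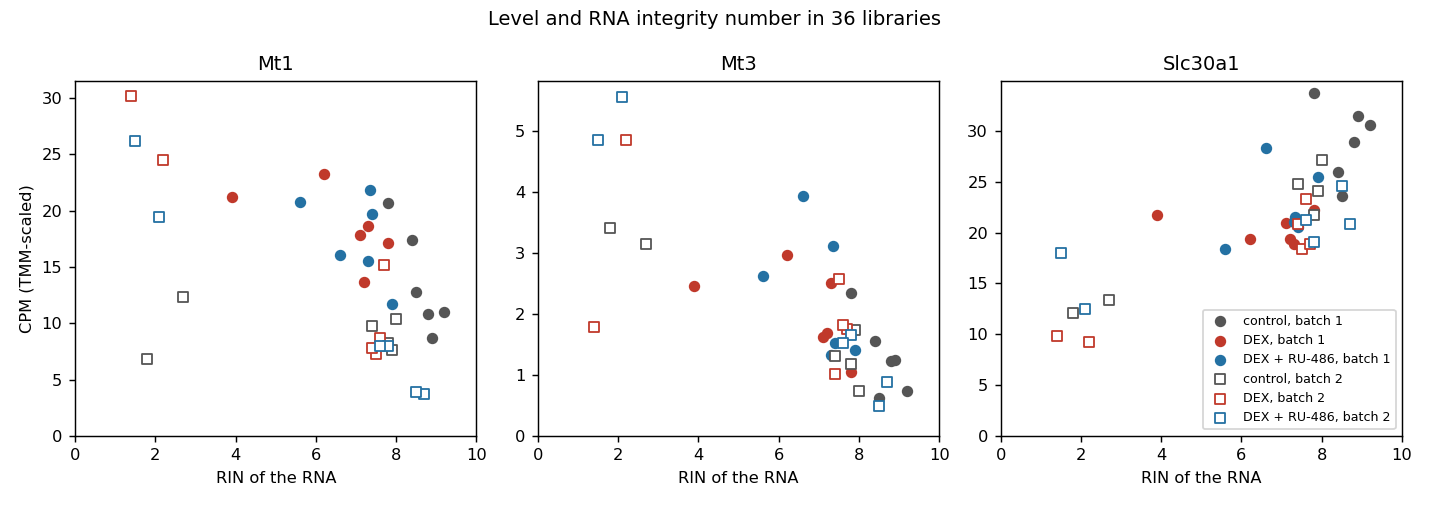
Level of Mt1, Mt3 and Slc30a1 in CPM (y axes, from 0) against the RIN of each library (x axis), coloured by treatment, with batch 1 filled and batch 2 open. The 6 libraries of RIN below 3 have Slc30a1 levels of 9.26 to 18.0 CPM, and Mt1 levels of up to 30.2 CPM.

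Among libraries of like treatment, Mt1 and Mt2 rose and fell together. With group means removed from log2 CPM, Pearson's r between them was 0.672 in batch 1 (n = 18, permutation p = 0.00232, adjusted p = 0.0155 over 20 relations, Spearman's rho 0.692, permutation p = 0.00183). In the intact libraries of batch 2 it was 0.889 (n = 12, permutation p = 0.00015, adjusted p = 0.00300, rho 0.881, permutation p = 0.00039). Leaving out the 2 libraries farthest from the median gave 0.695 and 0.819. Mt3 went with Mt1 less clearly, at r = 0.556 in batch 1 (permutation p = 0.0165, adjusted p = 0.0825, rho 0.587, permutation p = 0.0116, r without 2 libraries 0.528) and 0.387 in batch 2 (permutation p = 0.212, adjusted p = 0.353, rho 0.413, permutation p = 0.185, r without 2 libraries 0.306).

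Slc30a1 ran against Mt2 in batch 1, where r was -0.686 (n = 18, permutation p = 0.00154, adjusted p = 0.0154, rho -0.682, permutation p = 0.00247, r without 2 libraries -0.625). In batch 2 the value was -0.193 (n = 12, permutation p = 0.541, adjusted p = 0.636, rho -0.126, permutation p = 0.695, r without 2 libraries -0.0489), so the relation was seen in 1 of 2 batches. For Mt1 the relation did not pass, with r = -0.24 to Slc30a1 in batch 1 (permutation p = 0.336, adjusted p = 0.514, rho -0.335, permutation p = 0.174, r without 2 libraries -0.279) and -0.262 in batch 2 (permutation p = 0.405, adjusted p = 0.514, rho -0.182, permutation p = 0.573, r without 2 libraries -0.0459). Against RIN, no member passed after adjustment in either batch. The smallest adjusted values were those of Mt1 (r = -0.514, permutation p = 0.0275, adjusted p = 0.0917, rho -0.562, permutation p = 0.0166, r without 2 libraries -0.607) and Mt3 (r = -0.519, permutation p = 0.0236, adjusted p = 0.0917, rho -0.548, permutation p = 0.0210, r without 2 libraries -0.677) in batch 1. In batch 2 the values were as large, -0.609 for Mt2 (permutation p = 0.0354, adjusted p = 0.101, rho -0.462, permutation p = 0.132, r without 2 libraries -0.374), -0.57 for Mt1 (permutation p = 0.0548, adjusted p = 0.137, rho -0.42, permutation p = 0.177, r without 2 libraries -0.282) and -0.537 for Mt3 (permutation p = 0.0733, adjusted p = 0.163, rho -0.615, permutation p = 0.0376, r without 2 libraries -0.507). Slc30a1 had 0.0506 in batch 1 (permutation p = 0.843, rho 0.0857, permutation p = 0.739, r without 2 libraries -0.0528) and 0.283 in batch 2 (permutation p = 0.372, adjusted p = 0.514, rho 0.224, permutation p = 0.487, r without 2 libraries 0.465).

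**Figure D4:**
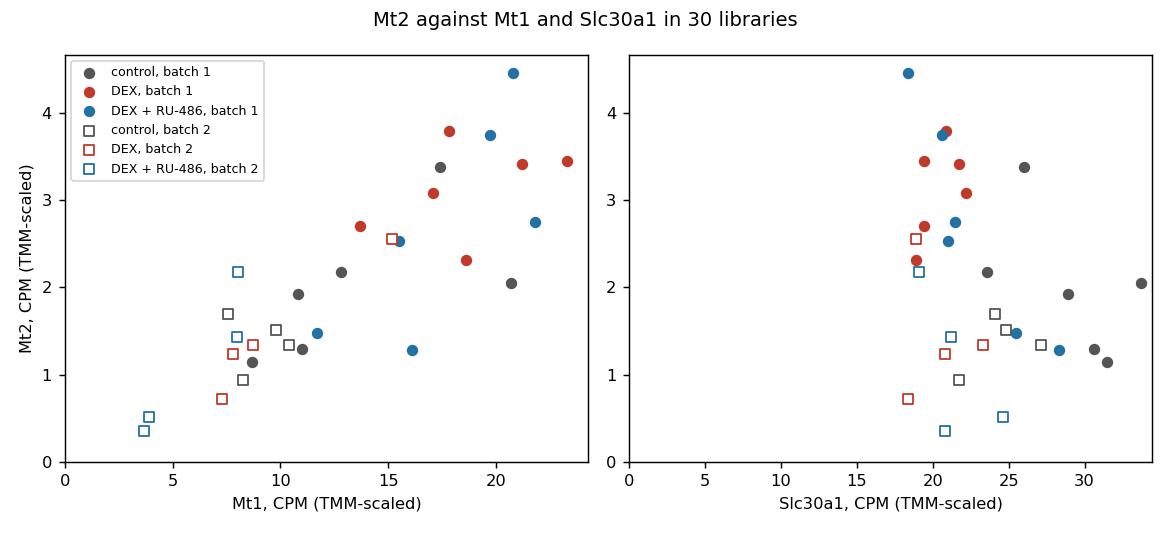
Mt2 against Mt1 (left) and against Slc30a1 (right), all in CPM with axes from 0. The 30 libraries are those of batch 1 (filled) and the intact ones of batch 2 (open), coloured by treatment. Mt2 rises with Mt1 in both batches (r = 0.672 and 0.889 with group means removed).

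The genes with the most similar profile were sought over the 28 libraries of RIN 6 or above, with batch means removed, among 14128 genes. For Mt1 they were Ccng1 (r = 0.81), Mt2 (0.802), Klf3 (0.80) and Sema6d (0.786), for Mt2 they were Mt1 (0.802), Bace2 (0.796), Elovl7 (0.783) and Dock11 (0.757), and for Mt3 they were Eepd1 (0.761), Dusp4 (0.75), Rora (0.749) and Peg10 (0.749). Mt1 and Mt2 thus stood among each other's 4 nearest genes, and Mt3, at r = 0.56 to Mt1 and 0.295 to Mt2, did not. Slc30a1 was closest to Pigs (0.918), Clptm1 (0.879), Pgrmc1 (0.877) and Foxk2 (0.874). Slc30a3 was closest to the pseudogene Tmem181c-ps (0.805), Exosc2 (0.771), Pcdhb12 (0.771) and Jmjd8 (0.765). These libraries share treatments and RIN, and the values describe them only.

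The wider family of zinc exporters comprises the Slc30a genes, which lower cytosolic zinc. Of 10 listed genes 8 were tested, and in batch 1 3 were lower and 0 higher in DEX, where 19% of all genes were called, with a median log2 fold change over the list of -0.099 beside 0.058 over all genes. Besides Slc30a1 these were Slc30a4, which serves vesicles and milk secretion (-0.48, SE 0.16, adjusted p = 0.0407), and Slc30a9, which acts in mitochondria (-0.53, SE 0.089, adjusted p = 0.000771). In DEX + RU-486, with 15.4% of all genes called, 2 were lower, Slc30a1 and Slc30a9 (-0.45, SE 0.089, adjusted p = 0.00349), with a median of -0.24 beside 0.053. None passed in batch 2 or over both batches. In degraded RNA 6 of 8 were lower and 0 higher, beside 55.2% of all genes called, with a median of -0.78. Lower calls made up 9.99% of all genes in DEX, 8.46% in DEX + RU-486 and 26.8% in degraded RNA. Lists were not tested against other genes.

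Of 14 zinc importers (Slc39a genes, which raise cytosolic zinc) 11 were tested, and 3 were called in DEX in batch 1 (19% of all genes), 3 in DEX + RU-486 (15.4%) and 7 in degraded RNA (55.2%). In batch 1 Slc39a10, a plasma membrane importer, was lower in DEX (-0.98, SE 0.17, adjusted p = 0.000848), as was Slc39a6, its relative (-0.33, SE 0.093, adjusted p = 0.0182). Slc39a7, which releases zinc from the endoplasmic reticulum, was higher (0.46, SE 0.093, adjusted p = 0.00243). In DEX + RU-486 3 were lower, Slc39a10 (-1.01, SE 0.17, adjusted p = 0.00127), Slc39a6 (-0.44, SE 0.093, adjusted p = 0.00507) and Slc39a11 (-0.61, SE 0.21, adjusted p = 0.0481). The list medians were -0.18 and -0.27 beside 0.058 and 0.053 over all genes. None passed in batch 2 or over both batches, and in degraded RNA 6 of 11 were lower, Slc39a10 (-1.10) and Slc39a6 (-0.89) among them, and 1 higher. The response to DEX differed between the batches for Slc30a9 (interaction 0.53, SE 0.12, adjusted p = 0.0113), Slc39a10 (0.59, SE 0.14, adjusted p = 0.0156) and another importer, Slc39a13 (-0.85, SE 0.25, adjusted p = 0.0482), which is named here after its value was seen. This interaction was called for 866 of all genes (4.25%), and for 35 when all 36 libraries entered.

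**Figure D5:**
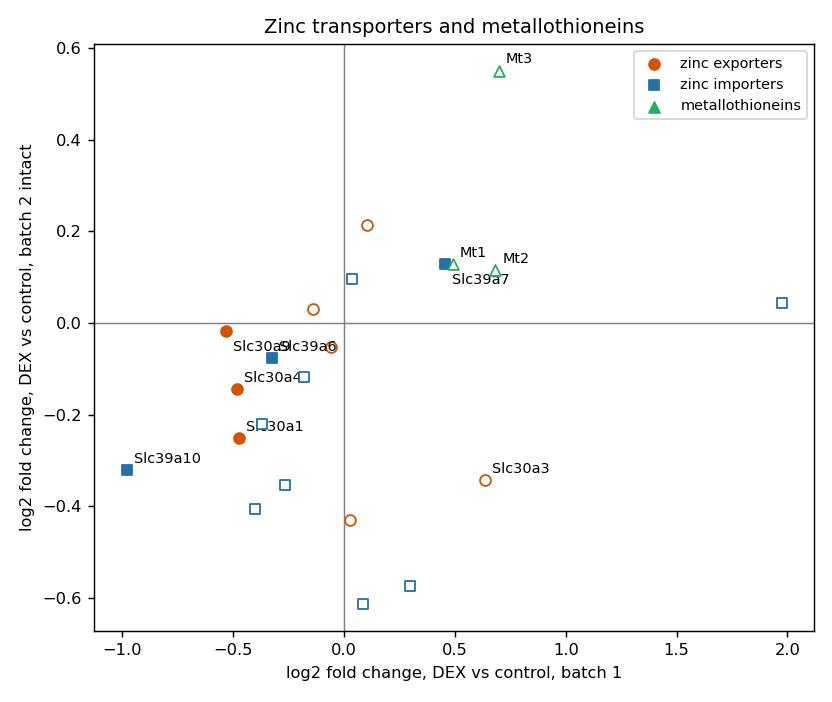
Log2 fold change of DEX against control in batch 1 (x axis) and in the intact libraries of batch 2 (y axis) for 8 zinc exporters (circles), 11 zinc importers (squares) and 3 metallothioneins (triangles). Filled symbols passed the test in batch 1, 5 of them lower in DEX and 1, Slc39a7, higher, and none passed in batch 2. The axes cover different ranges.

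Mtf1, the zinc-sensing transcription factor, had log2 fold changes of 0.00016 in DEX (SE 0.14, adjusted p = 1.00) and -0.19 in DEX + RU-486 (SE 0.14, adjusted p = 0.406) in batch 1, and -0.066 (adjusted p = 0.776) and 0.030 (adjusted p = 0.975) in batch 2. The counts of copper-handling and oxidative stress genes stand beside 19% of all genes called in DEX and 15.4% in DEX + RU-486. Of 10 copper-handling genes, all tested, 1 was higher in DEX in batch 1, the copper pump Atp7b (1.00, SE 0.27, adjusted p = 0.0141), and 2 were lower in DEX + RU-486, the copper importer Slc31a1 (-0.45, SE 0.12, adjusted p = 0.0169) and the copper-zinc superoxide dismutase Sod1 (-0.28, SE 0.093, adjusted p = 0.0416). Of 8 oxidative stress genes under the factor NRF2, 7 were tested, and Gclm, a subunit of the enzyme of glutathione synthesis, was lower in DEX (-0.60, SE 0.12, adjusted p = 0.00187) and DEX + RU-486 (-0.39, SE 0.12, adjusted p = 0.0273). No copper or oxidative stress gene passed between treatments in batch 2 or over both batches. In degraded RNA 3 copper genes were higher and 4 lower, and 1 oxidative stress gene was higher, beside 55.2% of all genes called.

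Known targets of the glucocorticoid receptor served as a reference for these genes. In DEX in batch 1, where 19% of all genes were called and 8.98% were higher, 2 of 5 were higher: Per1, a clock gene (0.80, SE 0.20, adjusted p = 0.00825), and Tsc22d3, which encodes GILZ (0.67, SE 0.22, adjusted p = 0.0352). Fkbp5, a chaperone of the receptor (-0.053, adjusted p = 0.887), Sgk1, a kinase (0.22, adjusted p = 0.547), and Klf9, a transcription factor (0.50, adjusted p = 0.308), did not pass. With RU-486 added, where 15.4% of all genes were called, 1 of 5, Per1, was higher than control (0.75, SE 0.20, adjusted p = 0.0158). In batch 2 the values in DEX were 0.11 for Fkbp5, -0.14 for Tsc22d3, -0.26 for Sgk1, -0.032 for Per1 and 0.60 for Klf9 (adjusted p = 0.104 for Klf9), and none of the 5 passed there or over both batches. For DEX + RU-486 against DEX the 5 values ran from -0.52 to -0.055 in batch 1. In batch 2 that comparison gave -0.62 to -0.0055, and 0 of 5 passed in either batch.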

How the data were processed

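RNAseq counts of 36 libraries were used. The authors deposited 1 table of raw counts per gene, without normalization. Per the labels the reads were aligned to GRCm38 with HISAT2 2.1.0 and counted with Subread 1.5.0-p2, from poly(A)-selected RNA, whereas the methods of the study name a total RNA library. The annotation release and strand setting are not given in the sources used here. GENCODE M21 matched 55227 of 55492 entries.

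edgeR 4.0.16 (R 4.3.3) tested the 20355 genes with a mean count above 5 (TMM, quasi-likelihood, Benjamini-Hochberg over all tested genes, threshold 0.05), in 12 comparisons. Batch was a covariate where both batches entered. An SE is the log2 fold change divided by the square root of F. CPM used TMM factors, log2 CPM a prior count of 2. Correlations used 100000 permutations (scipy 1.17.1), two-sided. On simulated data with 200 changed genes, batch 1 recovered 97 of 100 changed 4-fold and 81 of 100 changed 2-fold, with 9 unchanged genes called. The intact libraries of batch 2 recovered 96 and 77, with 18. The changed genes were drawn only from genes of higher mean count than Mt3 and Slc30a3, and in batch 2 than Mt2. The recovery rates therefore do not cover these members. Differences in RIN or cell composition were not simulated.

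The named genes were the 5 members, called genes of the lists (up to 6 per list), Mtf1, Mt4, 5 receptor targets and the 4 genes most alike each member (mean CPM at least 1). Members and lists were chosen with earlier results of these data known. Alternatives were DESeq2 1.42.0, other size factors, no filter, RIN as covariate, RIN of 6 or above, all batch 2 libraries, no batch covariate, leaving out each library and, chosen after the data were seen, library totals alone. The members' transcripts shared 0 of their 50-base windows with other genes.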

Additional observations from a re-analysis of the deposited data

Results flagged for a closer look

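Slc30a3 in the control library 20 of batch 2, a degraded library (RIN 1.8), had 1.55 CPM, whereas the other 5 control libraries of that batch had 0 to 0.405 CPM. Its gap to the nearest library was 0.738 of the range of the 6 libraries, which is above the limit of Dixon's test. It was the only such case among 45 groups of members and libraries tested, and chance gives about 5 in 100. The library did not enter the comparisons of intact libraries.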

How the results depend on the processing

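No paired analysis was possible because the library numbers run from 1 to 36 and no number occurs in more than 1 group. Of the members' values under the alternatives, 738 kept direction and side of the threshold, 15 lost a call, 6 gained 1 and 46 changed sign. The cause was not tested. For DEX against control over both batches, genes called numbered 457 with DESeq2, 455 with RIN as a covariate, 0 without the batch covariate and 4012 at RIN 6 or above, where 1 member was called, and Slc30a3 was 0.012, 0.24 (RIN 6 or above) and 0.12 (no batch covariate). For DEX + RU-486 against control over both batches the counts were 121 (DESeq2), 155 (RIN) and 1804 (RIN 6 or above, 1 member), Mt1 was -0.052 at RIN 6 or above, -0.034 with library totals and -0.0022 with RIN, and Mt2 -0.034 with library totals. For DEX + RU-486 against DEX over both batches DESeq2 called 2 genes, and Mt3 was -0.16 at RIN 6 or above.

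In batch 1, RIN as a covariate left 567 genes and 0 members for DEX against control, with Mt3 at -0.010, and 529 genes for DEX + RU-486 against control, where library totals gave 5735. In the latter 0 members were called with RLE size factors, no filter, RIN as a covariate or RIN 6 or above, and Mt1 was -0.023 with library totals. For DEX + RU-486 against DEX DESeq2 called 2 genes and no filter 1, and Slc30a3 was -0.038 at RIN 6 or above and -0.11 with library totals. In batch 2, DEX against control gave 1016 genes (DESeq2), 1263 (no filter), 65 (RIN), 0 (all batch 2 libraries) and 1641 (library totals, with 1 member, Slc30a1 at -0.45), Mt1 was -0.065 with library totals and -0.017 with RIN, and Mt2 -0.089 and -0.17. DEX + RU-486 against control gave 32 (DESeq2), 412 (no filter), 0 (RIN) and 0 genes (all batch 2 libraries), and with all batch 2 libraries Mt1 was 0.31, Mt2 0.26 and Mt3 0.38, while Mt3 was 0.15 with RIN. DEX + RU-486 against DEX gave 1511 (DESeq2), 1634 (no filter, with 1 member, Mt1), 5 (RIN), 0 (all batch 2 libraries) and 2450 genes (library totals), Mt2 was 0.15 with RIN and Mt3 0.080 with all batch 2 libraries. The DEX interaction gave 1303 genes without the filter, 35 with all 36 libraries and 75 with library totals, with Mt1 at 0.29 and Mt2 at 0.10 in all 36. The RU-486 interaction gave 48 (DESeq2), 175 (no filter), 0 (all 36) and 27 (library totals), with Mt2 at 0.27 with library totals and Slc30a1 at 0.063 in all 36 and 0.23 with library totals. Degraded against intact RNA gave 21169 genes without the filter, and library totals left 1 member, with Mt2 at -0.27 and Slc30a3 at -0.36.

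Leaving out 1 library at a time in batch 1, 1 to 2 members and 2761 to 4566 genes were called for DEX against control. For DEX + RU-486 against control 0 to 1 members and 1844 to 3838 genes were called. For DEX + RU-486 against DEX 0 to 1 genes were called, and Mt1 ranged from -0.17 to 0.011, Mt3 from -0.049 to 0.31 and Slc30a3 from -0.13 to 0.21. In batch 2, genes called ranged from 9 to 660 in DEX against control, 0 to 2 in DEX + RU-486 against control and 6 to 1298 in DEX + RU-486 against DEX. There, for DEX against control, Mt1 ranged from -0.17 to 0.25, Mt2 from -0.30 to 0.35 and Slc30a3 from -1.67 to 0.083. For DEX + RU-486 against control Mt2 ranged from -0.83 to 0.0065 and Mt3 from -0.35 to 0.13, and for DEX + RU-486 against DEX Mt2 ranged from -0.94 to 0.010. Read numbers limit the precision of Slc30a3, which had a median of 13 reads and 0 in 4 of 36 libraries, and of Mt2, with a median of 45 and 0 in 1.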
